A study of Mus musculus with 4 samples.

Results

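The IFIT family (interferon-induced proteins with tetratricopeptide repeats) is represented in the mouse by a cluster of genes on chromosome 19, of which 6 were followed here: Ifit1, Ifit2, Ifit3, Ifit3b, Ifit1bl1 and Ifit1bl2. They were picked as a family by gene symbol, and all 6 were found among the 26561 genes of the count table. The cells are MC38, a mouse colon adenocarcinoma line that the labels call epithelial and of wild-type genotype. Irradiated cells (IR) received 30 Gy of X-rays as 1 fraction, and their RNA was taken 60 h later. Unirradiated cells (nonIR) received none, and the labels name no harvest time for them, so any difference in time in culture and irradiation cannot be told apart. Each group has 2 messenger RNA libraries, and the comparison asks how transcripts of tumour cells grown alone stood after a high dose. Whether replicates were separate cultures is not said, so p-values reflect library-to-library spread that may be purely technical.

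IFIT proteins are built almost wholly of tetratricopeptide repeats, helical hairpins that stack into a groove. Several of them bind RNA ends that lack the methylation marks of the cell's own capped messages, and others bind fellow family members or the translation initiation factor eIF3, so that foreign RNA is translated poorly. In most cells the genes are nearly silent until interferon, or the sensing of nucleic acid, activates factors that bind the interferon-stimulated response element (ISRE) in their promoters. Ifit1 is the cap-sensing member. Ifit3 is known in humans to bind and steady IFIT1, and Ifit2 joins complexes with both. Ifit3b, Ifit1bl1 and Ifit1bl2 are rodent copies whose own roles are less well described.

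In the GRCm38 assembly the cluster spans 99.3 kb, from 34550694 to 34650009. In order along the chromosome, Ifit2 (ENSMUSG00000045932) lies at 34550694 to 34576419 and Ifit3 (ENSMUSG00000074896) at 34583531 to 34588731, both on the plus strand. Ifit1bl1 (ENSMUSG00000079339) follows at 34592891 to 34601956 on the minus strand, and Ifit3b (ENSMUSG00000062488) at 34607970 to 34613401 on the plus strand. Ifit1bl2 (ENSMUSG00000067297) runs on the minus strand from 34617049 to 34640743, head to head with Ifit1 (ENSMUSG00000034459), which runs on the plus strand from 34640871 to 34650009. Only 127 bases part the annotated starts of these last genes. No exon of a member overlaps an exon of another annotated gene.

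The bases before the annotated start are shown for 5 members, because the members differ in the interferon motifs they hold there. They come from the RefSeq promoter table (GRCm38.p6), in which all 6 members were found by symbol, and capitals mark each ISRE core, taken as GAAA, any 2 bases (NN) and GAAA again, on either strand (on the other strand it reads TTTC, NN, TTTC). Upstream bases only are shown, read along the strand of the gene. The Ifit1 stretch is chr19:34640744-34640870 (plus strand) and holds all the bases between the starts of Ifit1 and Ifit1bl2, so it serves both. The Ifit3 stretch is chr19:34583329-34583528 (plus), that of Ifit3b chr19:34607757-34607956 (plus), that of Ifit1bl1 chr19:34601969-34602168 (minus) and that of Ifit2 chr19:34550494-34550693 (plus).
Ifit1: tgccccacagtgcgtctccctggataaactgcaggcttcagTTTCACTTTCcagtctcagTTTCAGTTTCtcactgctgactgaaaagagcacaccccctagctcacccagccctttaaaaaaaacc
Ifit3: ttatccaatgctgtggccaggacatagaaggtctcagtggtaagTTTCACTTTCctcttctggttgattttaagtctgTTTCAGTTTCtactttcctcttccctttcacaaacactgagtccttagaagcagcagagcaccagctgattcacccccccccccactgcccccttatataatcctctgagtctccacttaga
Ifit3b: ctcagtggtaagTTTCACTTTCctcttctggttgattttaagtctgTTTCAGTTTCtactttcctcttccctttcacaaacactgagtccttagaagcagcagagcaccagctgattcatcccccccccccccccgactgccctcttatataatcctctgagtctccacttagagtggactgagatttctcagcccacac
Ifit1bl1: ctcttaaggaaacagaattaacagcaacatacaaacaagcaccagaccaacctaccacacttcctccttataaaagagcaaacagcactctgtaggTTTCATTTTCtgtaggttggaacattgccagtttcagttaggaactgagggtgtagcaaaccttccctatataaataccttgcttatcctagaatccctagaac
Ifit2: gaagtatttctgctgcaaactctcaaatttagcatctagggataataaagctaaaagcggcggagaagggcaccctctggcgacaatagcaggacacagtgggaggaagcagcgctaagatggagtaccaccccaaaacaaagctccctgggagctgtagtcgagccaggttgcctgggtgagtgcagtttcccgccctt
In the 250 bases before their first listed start, Ifit1, Ifit3 and Ifit3b held 2 ISRE cores each, and Ifit1bl1 held 1. Ifit1bl2 also held 2, and these are the pair of Ifit1, read from the other strand. Neither listed start of Ifit2, at 34550694 and 34551088, had a match in its window, which says only that those letters are not in these bases. Among all windows of the same length in the table, 2.98% of 32851 held an ISRE core. The upstream windows of Ifit3 and Ifit3b aligned over 218 bases, of which 216 were identical. GAS cores (TTCNNNGAA, in 7.02% of windows) and TATA boxes (TATAAA, in 12.4%) were looked for on both strands too. A GAS core was found before the first start of Ifit2, and TATA boxes before both starts of Ifit1bl1 and the second start of Ifit1bl2.

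**Figure D1:**
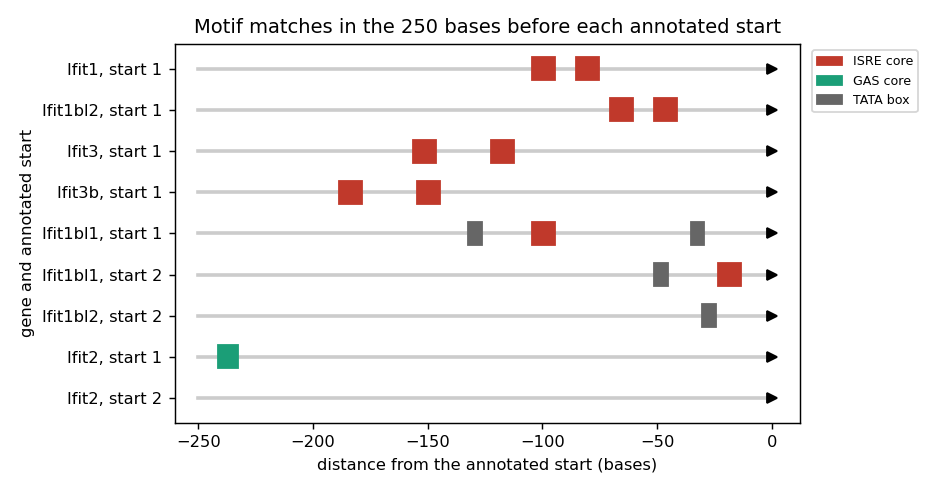
Positions of motif matches in the 250 bases before each RefSeq start of the 6 members (x axis, bases from the start, on the strand of the gene; arrowheads mark the start). ISRE cores stand in the first listed window of 5 members and in neither window of Ifit2.

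All 6 members were higher in irradiated cells, but by very different amounts. Ifit1 and Ifit3 were about as low as each other without irradiation and rose 45.0-fold and 53.0-fold. Ifit2 was the exception: it was already well expressed in unirradiated cells and rose 1.58-fold. Ifit3b, Ifit1bl1 and Ifit1bl2 had at most 1 count in any unirradiated library. At a Benjamini-Hochberg adjusted p under 0.05 in edgeR's quasi-likelihood test, 60.7% of 15298 tested genes were called in either direction and 30.4% were higher. Of the members, 3 (Ifit3b, Ifit1bl1 and Ifit1bl2) passed the filter on low counts through the irradiated libraries alone. That filter itself favoured a higher value for them, so their calls are no separate support. For each member the lower irradiated library exceeded the higher unirradiated one, as it did for 39.7% of all tested genes. In bulk RNA, a higher level in every cell and a high level in a part of the cells cannot be told apart.

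Ifit1 had 1063 and 1047 counts in the irradiated libraries, against 27 and 20 counts in the unirradiated ones. Scaled to library size, these were 37.5 ± 2.63 counts per 1000000 (CPM) in irradiated and 0.833 ± 0.210 CPM in unirradiated cells (SD, n = 2 each). The groups lay far apart, and the log2 fold change was 5.49 (SE 0.17, edgeR adjusted p = 9.20e-228). By log2 fold change Ifit1 stood at place 135 among the 15298 genes tested, of which 1.11% reached a log2 fold change of 5.

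Ifit3 followed Ifit1 closely. Its counts were 1393 and 1305 in the irradiated libraries, against 33 and 18 in the unirradiated ones, or 47.9 ± 1.67 and 0.908 ± 0.413 CPM (SD, n = 2 each). The groups lay far apart here too, with a log2 change of 5.73 (SE 0.15, edgeR adjusted p = 1.41e-294). The ratio of Ifit1 to Ifit3 counts was 0.763 and 0.802 in the irradiated libraries, against 0.818 and 1.11 in the unirradiated ones.

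Ifit2 had 2220 and 1883 counts in the irradiated libraries, against 1297 and 1309 in the unirradiated ones, which came to 72.7 ± 2.58 and 46.0 ± 1.67 CPM (SD, n = 2 each). The groups did not overlap, and the log2 fold change of 0.66 was small beside those of Ifit1 and Ifit3 but well above its standard error (SE 0.06, edgeR adjusted p = 3.29e-25). Ifit2 stood at place 3023 by fold change. Within a library, the log2 ratio of Ifit1 to Ifit2 counts averaged -0.95 in irradiated and -5.81 in unirradiated cells, a difference of 4.85. The log2 ratio of Ifit3 to Ifit2 differed by 5.14. An exact two-sided permutation test gave p = 0.333 for each of these ratios, which is the smallest p that 2 libraries against 2 can give.

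Ifit3b, the near copy of Ifit3, had 265 and 354 counts in the irradiated libraries, against 1 and 0 in the unirradiated ones. The ratio of summed counts per library size was 623, and its exact (Clopper-Pearson) 95% interval, for counting error alone, ran from 111 to 24630. Ifit1bl1 had 28 and 35 counts in irradiated cells, against 0 and 1 in unirradiated cells, a ratio of 63.4 (10.97 to 2542). Ifit1bl2 had 33 and 36 counts in irradiated cells and 0 in both unirradiated libraries, which is at least 23.1-fold higher if the unirradiated libraries together are given a floor of 3 counts. The lower limit of its exact interval, which is set another way, was 18.3. These copies were therefore detected in both irradiated libraries, Ifit1bl1 and Ifit1bl2 at little over 1 CPM (1.13 ± 0.267 and 1.23 ± 0.175 CPM, SD, n = 2 each). Their folds are known only within wide limits, and no p is given for them, since the filter let them in through the irradiated libraries.

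**Figure D2:**
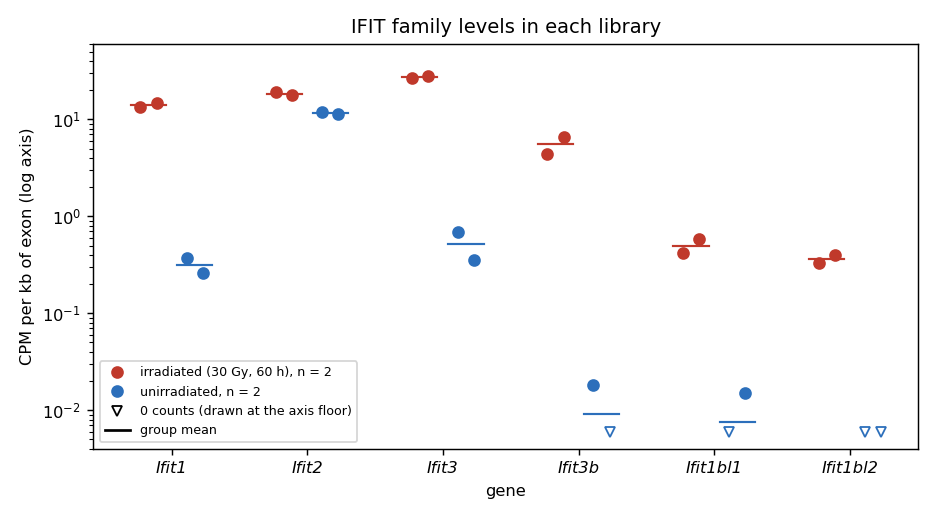
Level of each member in each library (y axis, CPM per kb of exon, log scale), with irradiated libraries in red on the left of each pair and unirradiated ones in blue; points are libraries, lines group means, and open triangles libraries with 0 counts. Ifit2 is the member whose unirradiated libraries, at 12.01 and 11.4, lie near its irradiated ones.

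To set levels of different genes against each other, CPM were divided by the length of all annotated exons in kb. In irradiated cells the order was Ifit3 with 27.5 ± 0.956 CPM per kb, Ifit2 with 18.5 ± 0.656, Ifit1 with 14.1 ± 0.992 and Ifit3b with 5.55 ± 1.57 (SD, n = 2). Ifit1bl1 (0.499 ± 0.118) and Ifit1bl2 (0.366 ± 0.0519) came last, and they were near each other, the lower library of Ifit1bl1 being at 0.416 and the higher one of Ifit1bl2 at 0.402. In unirradiated cells Ifit2 led with 11.7 ± 0.424 CPM per kb. Ifit3 (0.520 ± 0.237) and Ifit1 (0.314 ± 0.0791) followed and overlapped, and the other members were at or near 0. The lead of Ifit3 over Ifit2 in irradiated cells depended on the length used: per kb of coding sequence, Ifit2 stood at 51.5 ± 1.83 and Ifit3 at 39.6 ± 1.38, because more of the annotated Ifit2 transcript lies outside its coding part.

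The make-up of the family's counts differed between the groups. The 6 members together had 168 and 175 CPM in the irradiated libraries, against 49.4 and 46.1 CPM in the unirradiated ones. Ifit2 held 44.4% (exact 95% interval 43.0 to 45.8) and 40.4% (39.0 to 41.8) of these counts in irradiated cells, against 95.5% (94.3 to 96.5) and 97.1% (96.1 to 97.9) in unirradiated cells. Ifit1 made up 21.3% and 22.5% after irradiation and 1.99% and 1.48% without it, and Ifit3 made up 27.8% and 28.0% after irradiation and 2.43% and 1.34% without it. The intervals cover counting error only. They do not overlap between the groups for any of these 3 genes. Those of Ifit2 do not overlap between the irradiated libraries either, so libraries of a group also differed by more than counting error. The shares are parts of one total, so a lower share of Ifit2 goes with higher shares of other members.

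**Figure D3:**
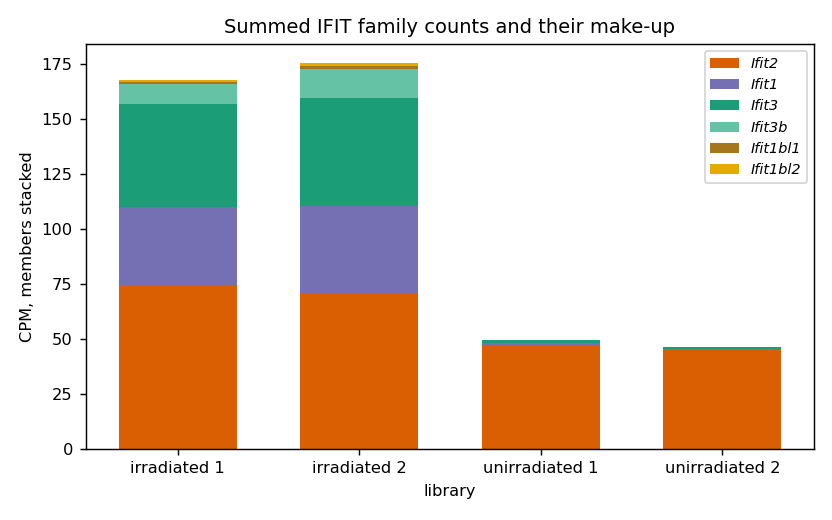
Summed CPM of the 6 members in each library, stacked by member (y axis, CPM), with irradiated libraries on the left. Ifit2 fills nearly the whole bar of the unirradiated libraries, at 95.5% and 97.1% of the members' counts.

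How far the copies can be told apart was measured on the annotated transcripts. The coding sequences of Ifit3 and Ifit3b were identical at 1201 of 1212 aligned bases (99.1%), those of Ifit1bl1 and Ifit1bl2 at 88.2%, and those of Ifit1 and Ifit1bl2 at 78.2%. Of the 100-base stretches of Ifit3, 68.3% were found in no transcript of another gene, and of those of Ifit3b 72.6%. The corresponding shares were 96.7% for Ifit1, 97.1% for Ifit1bl2, 99.5% for Ifit1bl1 and 100% for Ifit2. For 50-base stretches they fell to 48.8% for Ifit3, 55% for Ifit3b, 90.7% for Ifit1bl2, 92.9% for Ifit1 and 93.5% for Ifit1bl1. How reads were divided among Ifit1, Ifit1bl1 and Ifit1bl2 was not tested. Neither the read length nor how reads matching several genes were handled is stated in the labels, so the division of reads between Ifit3 and Ifit3b is uncertain. With their counts added, the pair had 1658 and 1659 counts in irradiated cells, against 34 and 18 in unirradiated cells, 64.0-fold higher (SE 0.14 on the log2 scale, edgeR adjusted p below 1e-300). Ifit3b held 15.98% (exact 95% interval 14.3 to 17.8) of the pair's counts in irradiated replicate 1 and 21.3% (19.4 to 23.4) in irradiated replicate 2. These intervals do not overlap, so the libraries of the same group differed in this share by more than counting error.

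Most tested genes that act before the IFIT family were higher as well. Of 12 interferon ligand genes, 4 were found in the table and all were too low to test. Ifnb1, which encodes interferon beta, had 17 and 8 counts in irradiated cells and 0 in both unirradiated libraries. This is at least 8.38-fold higher with the same floor, and the lower limit of its exact interval was 6.33. Of the 13 receptor, kinase and STAT genes, 12 were higher and none lower, with a median log2 fold change of 0.74. This stands beside 30.4% higher and a median of 0.01 over all tested genes. Ifnlr1 passed the filter through the irradiated libraries alone, and of the 12 others 11 were higher. The call for Jak2 was lost in DESeq2 (adjusted p = 0.0555). It was also lost without unirradiated replicate 1 (log2 fold change 0.08) and without irradiated replicate 1 (0.15). The call for Ifnlr1 was lost without unirradiated replicate 1 (1.54), irradiated replicate 1 (2.52) or irradiated replicate 2 (2.07). Stat2 and Irf9, whose products act together at the ISRE, were among the higher ones: Stat2 was higher by 1.97 (SE 0.06, edgeR adjusted p = 1.13e-201) and Irf9 by 1.88 (SE 0.10, adjusted p = 1.64e-80) on the log2 scale. Irf9 had 1319 and 1172 counts in irradiated cells, against 326 and 353 in unirradiated cells. The receptor chain gene Ifnar2 was higher by 0.45 (SE 0.10, adjusted p = 4.25e-05), whereas its partner Ifnar1 had a log2 fold change of 0.01 (SE 0.05) that did not pass (adjusted p = 0.916).

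Of 5 tested interferon regulatory factor genes, 4 were higher, where 30.4% of all tested genes were higher and 30.3% lower. Irf7, which amplifies interferon production, rose most, with 868 and 799 counts in irradiated cells, against 65 and 50 in unirradiated cells (log2 fold change 3.86, SE 0.15, edgeR adjusted p = 3.02e-134). Irf3, which is activated without new synthesis and can switch on Ifit genes directly, did not pass (-0.18, SE 0.10, adjusted p = 0.110). Of 10 genes of nucleic acid sensing, 7 were higher and none lower, among them the RNA sensor genes Dhx58 (3.53, SE 0.13), Ddx58 (2.54, SE 0.06) and Ifih1 (2.08, SE 0.10). The adaptor gene Mavs (0.11, SE 0.06, adjusted p = 0.0771) and the kinase gene Ikbke (0.05, SE 0.12, adjusted p = 0.719) did not pass. Among 5 tested feedback genes, Usp18 (5.15, SE 0.36), Isg15 (4.24, SE 0.17) and Adar (1.03, SE 0.05) were higher. Usp18 passed the filter through the irradiated libraries alone, which itself favours a higher value, and of the 4 others 2 were higher. Lower were Socs3 (-0.57, SE 0.09, adjusted p = 6.21e-10) and Socs1 (-0.39, SE 0.14, adjusted p = 0.0110). The call for Socs1 was lost without unirradiated replicate 1 (adjusted p = 0.153) and without irradiated replicate 2 (adjusted p = 0.0932).

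Genes that set or read the feature of RNA that IFIT proteins recognise showed no common shift. Of 10 genes of the cap and the 5′ end, 2 were higher and 3 lower, with a median log2 fold change of -0.02, where 30.3% of all tested genes were lower. Eif2ak2, which encodes the RNA-activated kinase PKR, was higher (0.97, SE 0.05, edgeR adjusted p = 2.64e-77). Cmtr1, whose enzyme adds the ribose methylation that marks caps as the cell's own, had 78 and 104 counts in irradiated cells, against 43 and 56 in unirradiated cells (0.90, SE 0.31, adjusted p = 0.00806). Its call was lost without unirradiated replicate 1 (adjusted p = 0.0676) and without irradiated replicate 2 (adjusted p = 0.245). Eif4e, the cap-binding initiation factor that competes for the same RNA ends, was lower (-0.68, SE 0.05, adjusted p = 8.47e-50), and the guanine cap methyltransferase gene Rnmt did not pass (0.04, SE 0.08, adjusted p = 0.630).

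Subunits of eIF3, the initiation factor with which IFIT proteins have been found in complex, were lower in 10 of 13 genes and higher in 3, where 30.3% of all tested genes were lower and 30.4% higher. These changes were small, with a median log2 fold change of -0.22. They ran from -0.50 (SE 0.05) for Eif3i to 0.35 (SE 0.05) for Eif3k. Of 18 other genes of proteins with tetratricopeptide repeats, a list with no tie to interferon, 4 were higher and 9 lower (median -0.10). The highest was Ttc1 (0.26, SE 0.06), whose call was lost without unirradiated replicate 1 (edgeR adjusted p = 0.0533), and the lowest Ppid (-1.03, SE 0.05).

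Against other antiviral interferon-stimulated genes, Ifit1 and Ifit3 stood in the upper part of the range and Ifit2 near the lower end. Of 30 such genes, 29 were tested, 26 were higher and 1 was lower, beside 30.4% higher over all tested genes. The median log2 fold change of the 29 was 3.59. Of the 29, 13 passed the filter through the irradiated libraries alone, among them Ifi44, Rsad2 and Rtp4. For these the filter itself favoured a higher value. Of the 16 others 13 were higher. The highest fitted values were those of Ifi44 (8.98, SE 0.34; 8.09 to 12.1 without 1 library at a time), Rsad2 (8.35, SE 0.33), an enzyme that makes a chain-terminating nucleotide, and Rtp4 (7.22, SE 0.27). Ifi44 had 572 and 556 counts in irradiated cells, against 0 and 2 in unirradiated cells, and its fold is ill determined. Rsad2 had 509 and 539 counts in irradiated cells, against 1 and 2 in unirradiated cells. The lowest were the membrane protein genes Ifitm2, which fell (-0.52, SE 0.05, edgeR adjusted p = 2.91e-27), Ifitm3 (0.10, SE 0.05, adjusted p = 0.0852) and Ifitm1 (0.14, SE 0.11, adjusted p = 0.261). Ifitm2 had 3124 and 2612 counts in irradiated cells, against 4030 and 4225 in unirradiated cells.

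**Figure D4:**
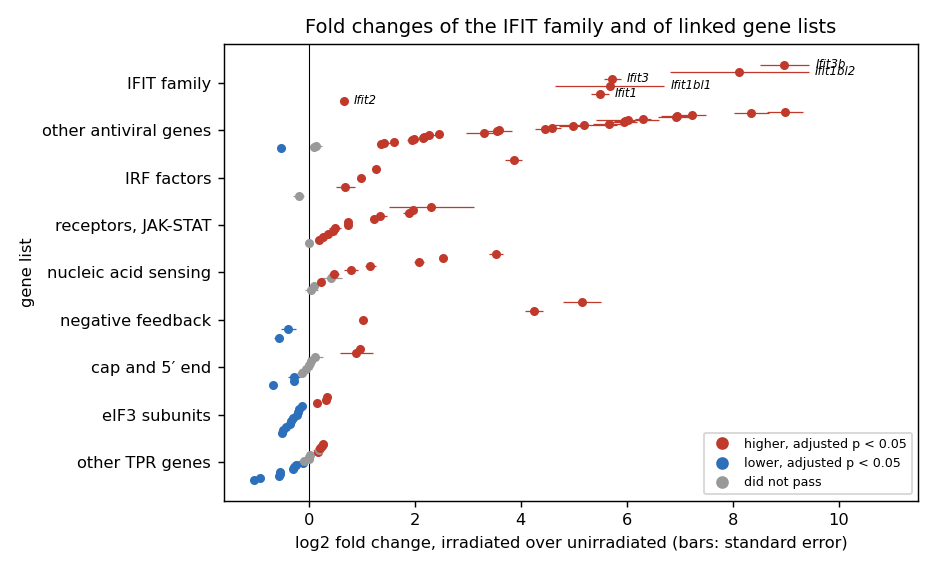
Log2 fold change of irradiated over unirradiated cells (x axis, bars are standard errors) for each tested gene of the IFIT family and of 8 other lists, with red points higher, blue points lower and grey points not past an adjusted p of 0.05. Ifit2 at 0.66 lies apart from the other 5 members, whose fitted values start at 5.49; those of Ifit3b, Ifit1bl1 and Ifit1bl2 depend on how counts of 0 and 1 are treated.

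Among 12829 tested genes outside the family with a mean of at least 1 CPM, likeness to the family was taken as the Euclidean distance between centred log2(CPM + 0.5) profiles over the 4 libraries, set against the mean profile of the members. The 5 nearest were Pla2g2e (distance 0.133), Trim12c (0.150), Slfn2 (0.153), Ifi209 (0.175) and Oasl1 (0.176). Oasl1, a relative of the oligoadenylate synthetases, had 104 counts in each irradiated library, against 2 and 1 in the unirradiated ones. Pla2g2e, a secreted phospholipase gene, had 156 and 145 counts in irradiated cells and 5 and 4 in unirradiated cells. With 4 libraries this measure mostly finds genes whose rise on the log2(CPM + 0.5) scale is near the members' average. That average joins the small rise of Ifit2 to the large rises of Ifit1 and Ifit3. It also takes in the members that passed the filter through the irradiated libraries alone. A gene near it therefore need not resemble any single member. Their fitted log2 fold changes were not alike, running from 3.14 for Ifi209 to 9.82 for Slfn2. Pla2g2e, Slfn2 and Oasl1 passed the filter through the irradiated libraries alone.

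Within 500 kb of the ends of the cluster lie 11 other protein-coding genes. Of these, 5 were higher, 0 lower, 1 did not pass in edgeR's test and 4 were too low to test. The remaining gene, Ch25h, 75.5 kb before the cluster, was not found in the count table. Over all tested genes 30.4% were higher, and Fas passed the filter through the irradiated libraries alone. The gene nearest to Ifit2, Lipa, which encodes the lysosomal acid lipase and lies 23.2 kb before the cluster, had 2582 and 2401 counts in irradiated cells, against 1451 and 1485 in unirradiated cells (log2 fold change 0.77, SE 0.06, edgeR adjusted p = 1.37e-39). On the other side, 18.4 kb after Ifit1, Slc16a12 had 1 and 0 counts in irradiated cells and 1 and 0 in unirradiated cells, too few to show a change of any size given here. Farther away, Fas, a death receptor gene, was higher by 5.37 (SE 0.60) and Lipn, a lipase gene, by 4.25 (SE 0.23), with 408 and 405 counts in irradiated cells against 19 and 24 in unirradiated ones. Pank1 (0.60) and Kif20b (0.62) were higher by amounts near that of Ifit2, and Stambpl1 (0.11, adjusted p = 0.446) did not pass.

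**Figure D5:**
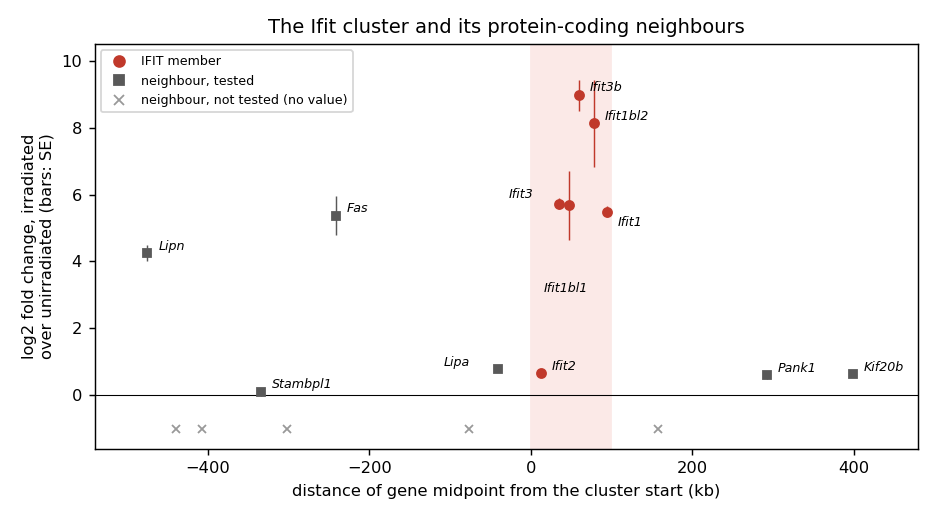
Log2 fold change (y axis, irradiated over unirradiated, bars are standard errors) of the members, in red, and of protein-coding genes within 500 kb, in grey, by distance of the gene's midpoint from the start of the cluster (x axis, kb; the shaded band is the cluster; crosses mark neighbours that were not tested and carry no y value). Lipa and Ifit2 lie side by side at 0.77 and 0.66, and the other members at 5.49 and above.

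The ISRE matches can be set beside the changes of other genes as a description. Of tested genes outside the family with an entry in the promoter table, 3319 of 10259 without an ISRE core before any listed start were higher (32.4%), 129 of 298 with 1 core (43.3%), and 17 of 25 with 2 or more (68.0%). Of 20 tested genes of the antiviral list with an entry, 7 held a core.

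Library totals ran from 26059171 to 29881492 counts. Genes with counts above 0 numbered 22713 and 22663 in the irradiated libraries, against 19413 and 19531 in the unirradiated ones. Counts of 0 were thus more frequent without irradiation across the whole table, not only among the members and Ifnb1. Replicates differed beyond sampling noise, with a mean chi-square per gene of 4.73 in irradiated and 3.38 in unirradiated cells, and each was kept as its own sample. Of 7 epithelial markers, 2 (Krt19 and Cdh1) reached 1 CPM in all libraries, with 2173 and 1798 counts of Cdh1 in irradiated cells, against 998 and 1009 in unirradiated cells. Epcam had 0 and 1 counts in irradiated and 0 in both unirradiated libraries, and Krt18, Krt20 and Cldn7 were below the filter. The list summed to 70.0 to 75.6 CPM in irradiated and 36.5 to 38.4 CPM in unirradiated cells. Fibroblast markers were present in 6 of 7, with sums of 1777 to 1795 and 1200 to 1204 CPM. Of cell types that could carry IFIT transcripts of their own, the list for T and natural killer cells reached 1 CPM in 0 of 7 genes, of which 3 were found in the table (summed 0.640 to 0.872 CPM in irradiated and 0.205 to 0.364 CPM in unirradiated cells), and Ptprc, the common leukocyte marker, had 24 and 17 counts in irradiated cells, against 10 and 6 in unirradiated ones. Of 7 genes each, the macrophage list reached 1 CPM in all libraries only with Cd68 (33.3 to 39.2 CPM in sum in irradiated and 4.11 to 5.02 CPM in unirradiated cells), the plasmacytoid dendritic cell list only with Tcf4 (82.3 to 86.2 and 63.8 to 67.5 CPM) and the endothelial list only with Pecam1 (6.41 to 6.62 and 1.92 to 2.58 CPM). Cd68 had 1120 and 840 counts in irradiated cells, against 127 and 112 in unirradiated cells, and Lyz2 had 23 and 20, against 0 and 2. Cd68, Lyz2, Tcf4, Pecam1 and Tek were called higher, as were Krt8, Cdh1 and the 6 fibroblast markers present. Among all tested genes, 30.4% were higher. Lyz2, Tek and Krt8 passed the filter through the irradiated libraries alone, which itself favours a higher value. The macrophage genes Adgre1 and Csf1r had at most 2 counts in any library. The part of these marker shifts in the IFIT values was not tested.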

How the data were processed

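The table deposited by the authors gives raw counts for Ensembl genes, with a column for each library. Per the submitters' processing notes, the build was mm10 and the tools include HISAT2, HTSeq, HISAT and DESeq2, with no versions. The annotation, the strand setting and how multiply mapped reads were counted: not given in the sources used here. Groups and replicate numbers come from the sample titles. Symbols (found for 26372 genes), coordinates (GRCm38, 1-based) and lengths come from GENCODE M21, of the same build as mm10. Counts were tested with edgeR 4.0.16 in R 4.3.3 (TMM, filterByExpr, which asks for about 10 counts in 2 libraries, glmQLFit with robust estimation, glmQLFTest) with a term for irradiation alone. Adjustment was Benjamini-Hochberg over 15298 genes, and 11263 were left out. CPM use TMM-scaled library sizes. Each standard error was taken as the size of the log2 fold change over the root of its F. The pipeline was tested on simulated data. DESeq2 1.42.0 and the other alternatives are given in the closing section. Members, gene lists and the rule for named genes (all members, the pathway lists, the extremes of the longer lists, the 5 most alike genes and the coding neighbours) were chosen with earlier results of these data known. The T cell, macrophage and plasmacytoid dendritic cell marker lists share Ptprc. Depth limits what counts of 0 to 3 can show, and intervals cover counting error only.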

Additional observations from a re-analysis of the deposited data

How the results depend on the processing

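Ifit1, Ifit2 and Ifit3 kept their direction and an adjusted p under 0.05 in every alternative tried: RLE and upper-quartile factors, no filter, an estimate of spread that is not robust, a stricter filter, DESeq2, the replicate block and leaving out each library. The other 3 members stayed higher where tested, but the filter lets them in through the irradiated libraries, so this says nothing about stability. The stricter filter, 5 CPM in 2 libraries, left out Ifit1bl1 and Ifit1bl2, so 4 members were tested there. Without 1 library at a time, log2 fold changes ran from 5.24 to 5.75 for Ifit1, 0.61 to 0.69 for Ifit2, 5.30 to 6.26 for Ifit3, 8.08 to 11.3 for Ifit3b, 4.86 to 7.98 for Ifit1bl1 and 7.999 to 8.23 for Ifit1bl2. Where 1 library is left in a group, it is assumed to vary like the other group's. With the replicate block, Ifit2 had a log2 fold change of 0.66 and 4507 genes were higher and 4519 lower. Deviations of same-numbered libraries from their group means showed almost no correlation over the tested genes (-0.009). This cannot exclude that same-numbered libraries were handled together. Upper-quartile factors gave 5303 higher and 3945 lower calls, and moved the median of all genes to 0.08.

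Per kb of coding sequence, Ifit2 ranked 1 and Ifit3 ranked 2 in irradiated cells, Ifit1bl2 ranked 5 and Ifit1bl1 ranked 6. Per unique 100-base stretch, an alternative chosen after seeing the data, no rank changed. Ifnb1 entered the test without the filter and in DESeq2, where 1 ligand was higher (adjusted p = 0.00243 and 0.00411). Leaving out a library gave 0 to 1 ligand higher, 1 to 2 cap genes higher, 1 to 2 feedback genes lower, 0 to 1 regulatory factors lower (Irf3, -0.32, adjusted p = 0.0225, without irradiated replicate 1) and 2 to 3 repeat-protein genes higher. The stricter filter left 1 cap gene higher. Ifnar1 turned to -0.013 without the filter and ran from -0.017 to 0.013 without 1 library at a time, and Ifitm1 ran from -0.033 (without irradiated replicate 2) to 0.29 (adjusted p = 0.0432, without irradiated replicate 1). Among the other listed genes, Mavs, Cgas and Ifitm3 passed under some alternatives, and Eif3e lost its call under upper-quartile factors, the stricter filter and without unirradiated replicate 2. Of 1138 values of listed genes under the alternatives, 31 lost and 12 gained a call. The cause of these shifts was not tested.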
